A study of Mus musculus with 16 samples.

Results

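Chromatin accessibility was examined at 8 genes of the Notch pathway in mouse hematopoietic stem and progenitor cells (HSPCs), the bone marrow cells from which all blood lineages arise. The genes were the receptors Notch1 and Notch2, the nuclear effectors Rbpj and Maml1, and the target genes Hes1, Dtx1, Nrarp and Ptcra, out of 21911 protein-coding genes in the annotation. The locus of each gene was its gene body in GENCODE M21 with 10 kb either side. Overlapping ATAC-Seq peaks of all 16 libraries were merged into 296215 regions, and the 8 loci held 176 of them. ATAC-Seq inserts sequencing adapters into open chromatin with the transposase Tn5, so that a peak marks DNA that was accessible.

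Each of 4 genotypes had 4 libraries, and each library was made from the pooled cells of 2 mice of the same genotype. WT mice were Ep300 fl/fl, P300KO mice Mx1-Cre;Ep300 fl/fl, TET2KO mice Ep300 fl/fl;Tet2-/-, and P300KO_TET2KO mice Mx1-Cre;Ep300 fl/fl;Tet2-/-. Ep300 encodes the lysine acetyltransferase p300, and Tet2 encodes an enzyme that oxidizes methylated cytosine. All groups had the floxed Ep300 alleles and the C57BL/6 background and were given poly(I:C), a double-stranded RNA mimic that turns on the interferon-driven Mx1-Cre in blood cells and in other tissues. Tet2 was absent from the germ line. The mice with intact p300 had no Cre, so the presence of Cre and the loss of p300 cannot be told apart. By the study's methods the injections were given to mice 6 to 8 weeks old, and whether the cells for ATAC-Seq were taken 2 weeks later or at another time is not given in the sources used here. The question was whether accessibility at Notch genes moved with p300 in either Tet2 background, and whether receptors and target genes differed in this.

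Notch receptors are cut after they bind a ligand on a neighboring cell, and the freed intracellular part enters the nucleus. There it joins the DNA-binding protein RBPJ and a Mastermind-like protein such as MAML1, which brings in acetyltransferases that include p300, and target genes such as Hes1 are transcribed. In hematopoiesis the pathway is best known for committing progenitors to the T lineage. Without the intracellular part, RBPJ can hold the same genes in a repressed state.

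RBPJ recognizes DNA with the core GTGGGAA. Within 100 bp of the summit on either side, 12 of the 104 regions of these loci that had a peak in at least 4 libraries held this string on one of the strands (11.5%), against 6042 of 128335 regions of the whole series (4.71%). It was found in 6 of 26 regions of target genes, 4 of 47 regions of receptors and 2 of 31 regions of effectors, and at least once in every locus but Maml1 and Ptcra. The shorter TGGGAA, which is contained in GTGGGAA, was present in 21.2% of the 104 regions against 17.1% of all. Of RefSeq promoter entries, 6.38% held the long string and 25.6% the short one. The entry printed below is 250 bases long and a summit window 201, so these shares are not from equal lengths. Strings of other blood factors had shares of 37.5% against 32.6% for the Ets string GGAAGT, 9.62% against 9.27% for the Gata string AGATAA, and 19.2% against 25.2% for the Runx string TGTGGT. A match describes the sequence of a window and does not show that a factor was bound. The sequences below show where the RBPJ strings lie in windows at 2 receptors and 3 target genes, together with the Notch1 window whose rank is described further on and which has none. All are from the mouse reference GRCm38.p6 (mm10), 5′ to 3′ on the plus strand except the Ptcra promoter, and capitals mark TGGGAA, or GTGGGAA where it is complete, on either strand.
Notch1 downstream of the principal start, chr2:26502371-26502571: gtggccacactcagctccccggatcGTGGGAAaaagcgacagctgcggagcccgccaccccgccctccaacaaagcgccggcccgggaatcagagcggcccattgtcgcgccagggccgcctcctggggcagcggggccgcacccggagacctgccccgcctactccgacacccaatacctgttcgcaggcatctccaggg
Notch1 far upstream, chr2:26525821-26526021: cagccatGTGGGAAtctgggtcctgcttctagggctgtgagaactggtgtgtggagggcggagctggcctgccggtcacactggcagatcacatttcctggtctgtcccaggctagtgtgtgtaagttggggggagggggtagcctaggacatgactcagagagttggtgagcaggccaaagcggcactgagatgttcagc
Notch1 upstream with no match, chr2:26513459-26513659: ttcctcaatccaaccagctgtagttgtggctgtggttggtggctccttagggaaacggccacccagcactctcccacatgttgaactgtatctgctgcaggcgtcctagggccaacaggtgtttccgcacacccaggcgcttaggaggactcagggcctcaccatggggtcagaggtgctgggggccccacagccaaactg
Notch2 intron, chr3:98046440-98046640: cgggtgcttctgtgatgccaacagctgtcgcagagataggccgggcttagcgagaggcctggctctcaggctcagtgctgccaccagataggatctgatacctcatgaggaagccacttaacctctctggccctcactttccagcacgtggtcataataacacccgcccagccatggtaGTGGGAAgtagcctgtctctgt
Dtx1 intron, chr5:120688534-120688734: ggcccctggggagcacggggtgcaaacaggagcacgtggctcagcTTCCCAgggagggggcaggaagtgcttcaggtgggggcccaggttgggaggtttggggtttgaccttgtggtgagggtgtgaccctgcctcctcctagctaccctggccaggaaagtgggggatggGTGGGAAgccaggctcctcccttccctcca
Nrarp distal upstream, chr2:25170566-25170766: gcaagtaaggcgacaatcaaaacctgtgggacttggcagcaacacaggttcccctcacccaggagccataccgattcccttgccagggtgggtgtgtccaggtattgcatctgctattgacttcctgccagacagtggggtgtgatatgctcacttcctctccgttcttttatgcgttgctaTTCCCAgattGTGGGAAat
Nrarp proximal upstream, chr2:25172780-25172980: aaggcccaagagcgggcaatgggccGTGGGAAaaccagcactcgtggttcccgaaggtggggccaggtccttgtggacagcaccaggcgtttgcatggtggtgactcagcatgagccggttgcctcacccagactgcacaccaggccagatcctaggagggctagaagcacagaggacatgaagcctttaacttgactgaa
Ptcra promoter, RefSeq, 250 bases before the start on the minus strand, chr17:46763713-46763962: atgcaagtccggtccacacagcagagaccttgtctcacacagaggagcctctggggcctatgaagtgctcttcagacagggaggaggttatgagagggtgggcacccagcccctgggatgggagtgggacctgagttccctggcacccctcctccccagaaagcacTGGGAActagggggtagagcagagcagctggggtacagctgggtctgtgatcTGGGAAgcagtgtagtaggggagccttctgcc

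The depth of sequencing is not given by the peak lists, which hold called peaks and their scores. The lists of replicates 1 and 2 had 86039 to 110055 peaks and those of replicates 3 and 4, deposited without the label of a merged peak file, had 130610 to 137335. Of the peaks of a list, 45.0% and 63.2% had a -log10 q of at least 2 in replicates 1 and 2 of WT, 71.3% to 93.4% in the other 6 libraries of the first kind and 92.2% to 97.4% in the 8 of the second. These are called set 1 and set 2 here, the set was a term of the fits unless stated otherwise, and nothing states what differed between them. Because fold enrichment and p of different lists are not comparable, the strength of a region in a library was given as its rank percentile by -log10 p within that library's own list, with 100 for the strongest peak and 0 where no peak was called. Start-site regions of 7 of 10 HSPC markers, among them Kit, Cd34 and Flt3, were present in all 16 libraries, and Mecom, also on that list, had one in 2 libraries. Of 6 markers of mature T cells, Cd5 and Thy1 had a start-site region in all 16 libraries, Cd4 in 10, Cd8a in 8, Cd3e in 1 and Cd3d in 0. Mean start-site percentiles of a library were 17.9 to 49.4 for mature myeloid, 15.4 to 42.3 for B cell and 34.3 to 48.5 for erythroid markers. Each of these was lowest in a WT library, and the genotypes overlapped. In a sorted population, fewer cells with an open region and a smaller opening in each cell cannot be told apart.

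No accessible region of the 8 loci was gained or lost in P300KO_TET2KO against TET2KO (0.114% of all regions with a peak in either genotype), P300KO against WT (0.0276%), TET2KO against WT (0.0255%) or P300KO_TET2KO against P300KO (0.146%), where gained and lost mean a peak in all 4 libraries of the first or the second genotype with 0 of 4 in its counterpart. A looser count of at least 3 against at most 1, by which 3517 of all regions were gained and 1547 lost in P300KO_TET2KO against TET2KO and 2212 and 1745 in P300KO against WT, took in a few member regions. An intronic Rbpj region (chr5:53509377-53509985) was found in 3 TET2KO libraries, at percentiles 30.1, 17.1 and 2.25, in 3 WT, 2 P300KO and 0 P300KO_TET2KO libraries. An exonic Notch1 region (chr2:26476088-26476351) was likewise found in 3 P300KO libraries, at percentiles 28.05, 28.12 and 28.04, and in 1 of WT, 1 of TET2KO and 2 of P300KO_TET2KO. In limma fits on the rank percentile of all 128335 regions with a peak in at least 4 libraries, 0 of the 104 member regions passed an adjusted p of 0.05 in any comparison. Of all regions, the fits called 0.0203% for P300KO_TET2KO against TET2KO, 0.0187% for P300KO against WT, 0.0117% for TET2KO against WT and 0.0452% for P300KO_TET2KO against P300KO. For p300 loss over both Tet2 backgrounds they called 0.166%, and for the difference of the p300 effect between backgrounds 0 regions (0%). At an unadjusted p under 0.05 the member regions numbered 9, 13, 10, 5, 14 and 2 in these 6 comparisons, or 8.65%, 12.5%, 9.62%, 4.81%, 13.5% and 1.92% of the 104. The corresponding shares of all regions were 7.20%, 10.1%, 7.60%, 7.42%, 12.6% and 3.99%. With p300 loss the median difference of the member regions was 0.64 percentile points, and that of all regions was 0.56. The 4 comparisons of genotypes share libraries with each other, and P300KO against WT and P300KO_TET2KO against TET2KO have none in common.

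The number of accessible regions in a locus did not pass the limma test in any of the 8 loci. The share of 18665 tested loci that did was 0.0107% for P300KO_TET2KO against TET2KO, 0% for P300KO against WT, 0.00536% for TET2KO against WT, 0% for P300KO_TET2KO against P300KO, 0.0161% for p300 loss and 0.00536% for the difference of the p300 effect between backgrounds. The nearest to a difference were Ptcra in P300KO_TET2KO against P300KO, with means of 2 and 3 regions (exact permutation p = 0.143, limma adjusted p = 0.757), and Notch2 with p300 loss, given with its counts below (limma adjusted p = 0.503).

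**Figure D1:**
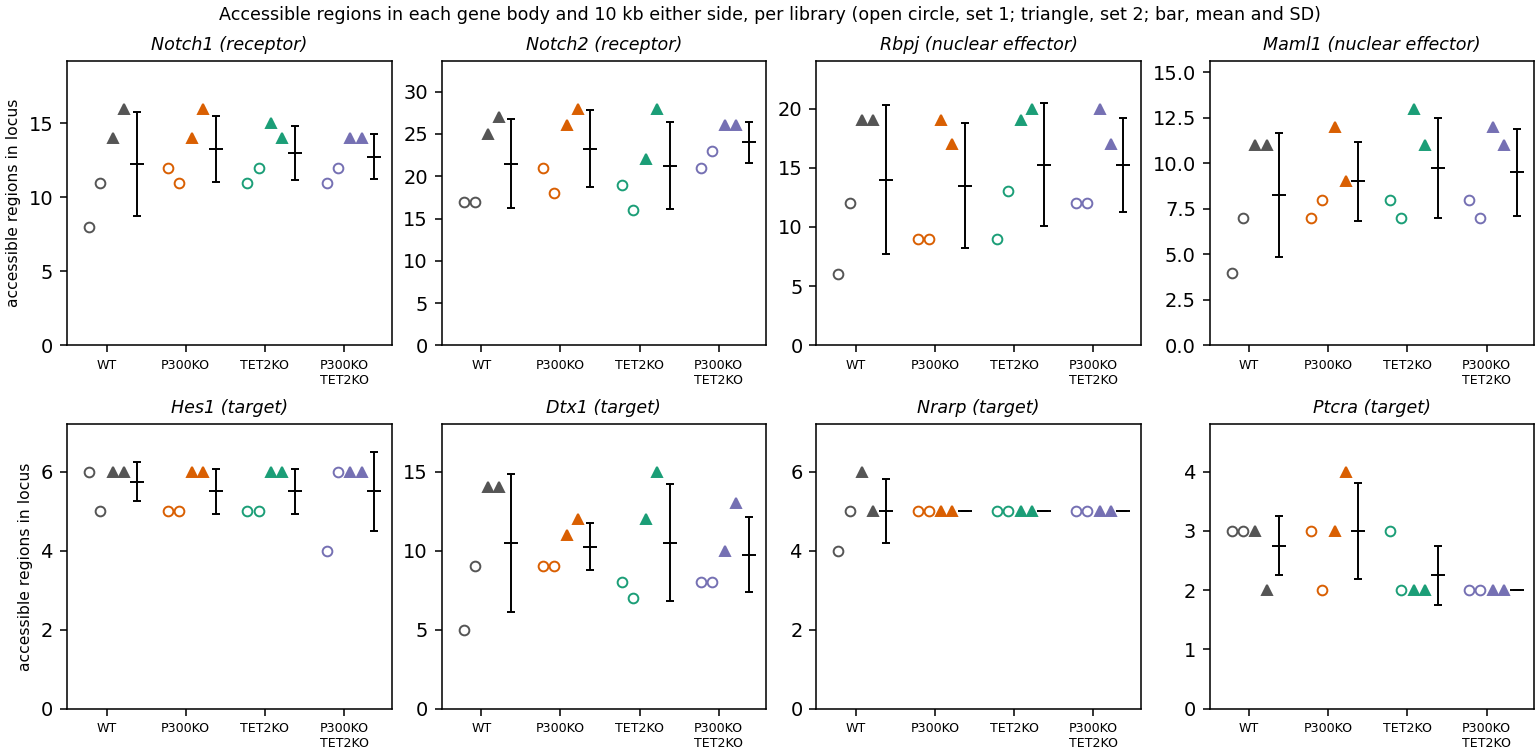
Accessible regions in the gene body and 10 kb either side of each gene (y axis, number of regions, a scale for each gene) in the libraries of each genotype (x axis). Open circles are libraries of set 1, triangles those of set 2, and the bar is the mean and SD of 4 libraries. At Notch1, Notch2, Rbpj, Maml1 and Dtx1 most triangles lie above the circles of the same genotype, while the 4 genotypes overlap.

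The receptor Notch1 (ENSMUSG00000026923.15, chr2:26457903-26516663, minus strand) had 23 regions, 7 of which were present in all 16 libraries. WT libraries had 8, 11, 14 and 16 regions, P300KO libraries 12, 11, 14 and 16, TET2KO libraries 11, 12, 15 and 14, and P300KO_TET2KO libraries 11, 12, 14 and 14. All groups overlapped, with the lowest count in WT and the highest, 16, in WT and P300KO. The region at the start site of the principal transcript (chr2:26502742-26504492) was among the stronger peaks of every library, at percentiles 92.5 to 96.7, and its difference with p300 loss was 0.08 ± 0.96 (SE) percentile points. An intronic region 20427 bp downstream of that start ranked as high, with a mean percentile of 95.9, and another 31289 bp downstream had a mean of 85.1.

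Upstream of the principal Notch1 start, inside the longer gene model that begins at 26516663, lay a region whose rank was lower in p300-null libraries in both sets and both Tet2 backgrounds. This region (chr2:26512992-26514127, summit 9737 bp upstream, edge 2536 bp from the alternative start) stood at percentiles 96.3, 94.0, 97.9 and 97.5 in WT and 92.1, 89.5, 95.4 and 96.3 in P300KO. TET2KO libraries had 90.3, 92.2, 97.1 and 96.8, and P300KO_TET2KO libraries 89.93, 89.98, 94.97 and 94.96. The genotypes overlapped, and within each genotype the libraries of set 2 ranked above those of set 1. The difference with p300 loss was -2.39 ± 1.02 (SE) points with an adjusted p of 0.364 (limma), and -4.39 and -1.88 points in Tet2-intact cells and -1.32 and -1.96 in Tet2-null cells, in set 1 and set 2. On the log2 of the rank it passed the limma test (-0.66 ± 0.12, SE, adjusted p = 0.0159), as it did when ranked among the regions that all libraries shared (adjusted p = 0.0237). It did not pass among the strongest 50000 peaks (adjusted p = 0.0541), with a replicate block (0.445), with a -log10 q of at least 2 (0.516), with no deposit set (1) or in any of the 16 fits without 1 library (0.345 to 0.508). The region was singled out after these values were seen. The region at the alternative start itself (chr2:26516116-26516649) was weaker, with a mean percentile of 51.4 and a peak in 15 libraries, and it holds GTGGGAA. The far upstream region of Notch1 with the RBPJ string had a difference of -15.6 ± 6.29 (SE) points with p300 loss (adjusted p = 0.336, limma).

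**Figure D2:**
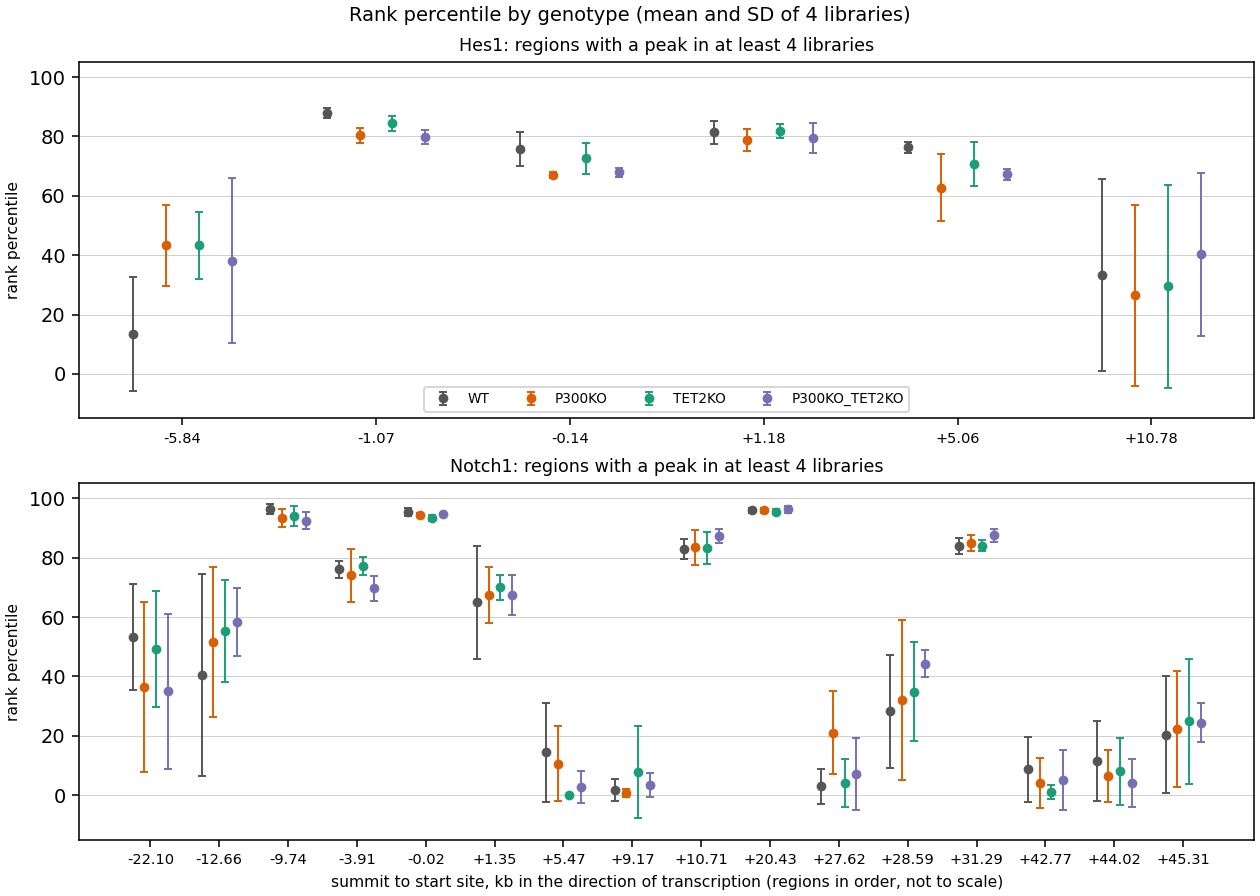
Rank percentile (y axis, mean and SD of 4 libraries, 0 where no peak was called) of the Hes1 and Notch1 regions with a peak in at least 4 libraries, in order of the distance of the summit from the start site (x axis, kb in the direction of transcription, not to scale). Colors are genotypes. At the upstream Hes1 region nearest to the start both p300-null genotypes lie below their p300-intact counterparts, and the Notch1 start-site region lies between 92.5 and 96.7 in all libraries.

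Notch2 (ENSMUSG00000027878.11, chr3:98013527-98150361, plus strand), the other receptor, had the most regions of the 8 loci, 55, of which 22 were seen in 1 library and 7 in all 16. WT libraries had 17, 17, 25 and 27 regions, P300KO libraries 21, 18, 26 and 28, TET2KO libraries 19, 16, 22 and 28, and P300KO_TET2KO libraries 21, 23, 26 and 26. The p300-null mean was 23.6 regions and the p300-intact mean 21.4, a difference of 2.25 (exact permutation p = 0.0586 over 1296 arrangements within set and Tet2 background, two-sided). The start-site region (chr3:98013068-98014260) stood at percentiles 94.3 to 98.4, with a difference of -0.19 ± 0.98 (SE) points with p300 loss. Of the 31 Notch2 regions tested, 21 had a higher and 10 a lower mean in p300-null libraries, where 43.7% of all regions were lower, and 0 had a p under 0.05 (limma).

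Several weak Notch2 regions were seen in few libraries. An intronic region (chr3:98087624-98088014) had a peak in 3 of 4 P300KO_TET2KO libraries, at percentiles 9.68, 9.11 and 24.1, in 1 of 4 TET2KO libraries, at 11.2, and in 0 of 4 WT and 0 of 4 P300KO libraries. A region 3855 bp upstream of the start (chr3:98009491-98009787) had a peak in 3 of 4 P300KO libraries, at 12.8, 35.7 and 7.27, in 1 of 4 WT libraries, at 0.166, and in none of the 8 Tet2-null libraries. Both regions had 4 peaks in all, at percentiles up to 35.7, and met the minimum of 4 libraries mainly through the genotype where they are high.

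Rbpj (ENSMUSG00000039191.12, chr5:53466152-53657362, plus strand) encodes the DNA-binding partner of the receptors and is the longest of the loci. It had 36 regions, 4 of them in all 16 libraries, and the fewest per length, 0.687 ± 0.225 (SD, n = 16) per 10 kb. Counts were 6 to 13 in set 1 and 17 to 20 in set 2. The start-site region (chr5:53588893-53590835), in which GTGGGAA also occurs, stood at 91.1 to 94.8. A smaller region just upstream of it (chr5:53588488-53588794) had percentiles of 83.3, 72.7, 69.0 and 78.2 in WT and of 46.7, 55.1, 75.8 and 67.3 in TET2KO. Both TET2KO libraries of set 1 ranked well below all WT libraries and 1 of set 2 lay within their range. The difference was -14.6 ± 5.23 (SE) points (adjusted p = 0.626, limma), and -6.49 ± 5.77 (SE) points without the WT libraries of set 1. The means were 75.8 in WT, 61.2 in TET2KO, 63.7 in P300KO and 63.85 in P300KO_TET2KO, so the lower rank was not particular to TET2KO.

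Downstream of Rbpj, a region past the end of the gene (chr5:53662459-53663074) had a peak in all 8 p300-null libraries. Its percentiles were 52.7, 25.8, 33.9 and 45.3 in P300KO and 30.6, 37.3, 43.5 and 46.5 in P300KO_TET2KO. In WT they were 0, 0, 32.7 and 36.2 and in TET2KO 0, 0, 41.4 and 41.7, so that the p300-intact libraries without a peak were those of set 1. The difference with p300 loss was 20.4 ± 5.72 (SE) points (adjusted p = 0.194, limma), and 16.2 ± 6.70 (SE) points without the WT libraries of set 1 (adjusted p = 0.304, limma). An intronic Rbpj region with the RBPJ string (chr5:53566523-53566956) had peaks in the 4 Tet2-intact libraries of set 2, at 43.2, 35.5, 18.5 and 40.6, and in none of the 8 Tet2-null libraries, so that it too met the minimum of 4 libraries only where it is high.

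Maml1 (ENSMUSG00000050567.16, chr11:50255634-50292311, minus strand), which encodes the coactivator that joins RBPJ and the receptor's intracellular part, had 16 regions. Its start-site region (chr11:50291585-50292884) was the strongest of the 8 in every library, at percentiles 98.6 to 99.5. An intronic region (chr11:50269246-50269799, 22951 bp downstream) had the largest positive difference with p300 loss among the 104 regions, 22.7 ± 6.24 (SE) points (adjusted p = 0.186, limma). Percentiles were 0, 0, 55.4 and 53.5 in WT against 46.2, 34.6, 62.2 and 66.1 in P300KO. With Tet2 absent they were 0, 33.6, 50.5 and 59.0 in TET2KO against 54.6, 50.2, 59.7 and 59.8 in P300KO_TET2KO. As at the region past Rbpj, the libraries without a peak were p300-intact libraries of set 1. Within set 2 the differences were 9.75 points in Tet2-intact and 5.07 points in Tet2-null cells, and within set 1 they were 40.4 and 35.6 points. Among the 16 libraries, both WT libraries of set 1 have the lowest shares of peaks that reach a -log10 q of 2, and without them the difference with p300 loss was 14.8 ± 6.15 (SE) points (adjusted p = 0.307, limma). The part of this share in the differences at Maml1 and Rbpj was not tested. Near the 3′ end of the locus, a region outside the gene, in an intron of Gm26542 (chr11:50250584-50251130), stood at 21.5, 26.1, 18.4 and 32.7 in P300KO_TET2KO and at 0, 6.98, 7.18 and 4.56 in P300KO. These groups did not overlap, with means of 24.7 ± 6.20 and 4.68 ± 3.34 (SD, n = 4 each, limma adjusted p = 0.351), and WT and TET2KO had percentiles of 0 to 23.3 and 0 to 27.6.

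Among the target genes, Hes1 had the lowest p with p300 loss. Hes1 (ENSMUSG00000022528.8, chr16:30064384-30067796, plus strand) encodes a transcriptional repressor that is turned on early in the Notch response. It had 7 regions, 4 of which were in all 16 libraries. The region just upstream (chr16:30063448-30064490, summit 1069 bp before the principal start and overlapping the 5′ end of the annotated gene) stood at percentiles 85.7, 88.4, 89.8 and 87.2 in WT and 79.8, 78.6, 84.0 and 79.1 in P300KO. In TET2KO it stood at 84.0, 82.2, 83.4 and 88.1 and in P300KO_TET2KO at 81.5, 80.2, 76.4 and 80.8. In both Tet2 backgrounds every p300-null library ranked below every p300-intact one. The means were 87.8 ± 1.73 in WT against 80.4 ± 2.45 in P300KO, and 84.4 ± 2.56 in TET2KO against 79.7 ± 2.27 in P300KO_TET2KO (SD, n = 4 each).

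The difference at this Hes1 region was -7.39 ± 1.96 (SE) points in P300KO against WT (adjusted p = 0.305, limma) and -4.68 ± 1.96 (SE) in P300KO_TET2KO against TET2KO (adjusted p = 0.656, limma). Over both backgrounds it was -6.03 ± 1.39 (SE) points, the lowest p of the 104 member regions with an adjusted p of 0.118 (limma). The exact permutation p for this single region was 0.00154, the smallest that the 1296 arrangements allow, and the region was chosen for its low p. This smallest value was not particular to Hes1. The upstream Notch1 region (chr2:26512992-26514127) and the intronic Maml1 region (chr11:50269246-50269799) had the same exact permutation p. How many of all regions reach it is not given here. With other settings the upstream Hes1 region passed the limma test: on the log2 of the rank (adjusted p = 0.0289), ranked among shared regions (0.0192), among regions present in all 16 libraries (0.0339), and among the strongest 50000 peaks of each list (0.0415). It did not pass with a -log10 q of at least 2 (adjusted p = 0.439) or without the deposit set (0.525), and it had an adjusted p of 0.213 with a replicate block.

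Of the other Hes1 regions, the start-site region (chr16:30065067-30065464), whose summit window holds GTGGGAA, stood at 78.0, 82.6, 71.1 and 71.3 in WT and at 67.1, 65.6, 67.58 and 68.1 in P300KO, and these did not overlap. In TET2KO it stood at 65.2, 76.9, 73.2 and 75.0 and in P300KO_TET2KO at 68.2, 69.1, 68.4 and 65.7, with replicate 1 of TET2KO below all P300KO_TET2KO values. The difference with p300 loss was -6.69 ± 2.06 (SE) points (adjusted p = 0.232, limma), and among the strongest 50000 peaks it passed (adjusted p = 0.0447, limma). Without the WT libraries of set 1 it was -4.17 ± 1.91 (SE) points (adjusted p = 0.36, limma). Downstream of the gene, a region with its summit 5063 bp from the start (chr16:30069864-30070860) had 78.6, 74.4, 75.9 and 76.1 in WT and 48.7, 58.5, 73.0 and 70.5 in P300KO, with a difference of -13.6 ± 4.07 (SE) points (adjusted p = 0.360, limma). Its TET2KO values were 60.2, 71.6, 77.0 and 74.2 and its P300KO_TET2KO values 69.4, 64.8, 67.4 and 67.3, which overlapped. Without the WT libraries of set 1, its difference in P300KO against WT was -8.64 ± 5.05 (SE) points (adjusted p = 0.688, limma). The region over the body of the gene (chr16:30066177-30067269) had a difference of -2.37 ± 2.07 (SE) points with p300 loss (adjusted p = 0.679, limma). Of the 6 tested Hes1 regions, 5 had a lower mean in P300KO than in WT, and 5 a lower mean in P300KO_TET2KO than in TET2KO, where 46.0% and 43.6% of all regions were lower. With p300 loss over both backgrounds 4 of the 6 were lower, where 43.7% of all regions were. The 6 regions belong to 1 locus and are not replicates. The sixth in the comparison with WT, a weak region upstream (chr16:30059334-30059651), was higher in P300KO and in TET2KO than in WT by 29.9 ± 9.96 (SE) points each (adjusted p = 0.399 and 0.622, limma).

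**Figure D3:**
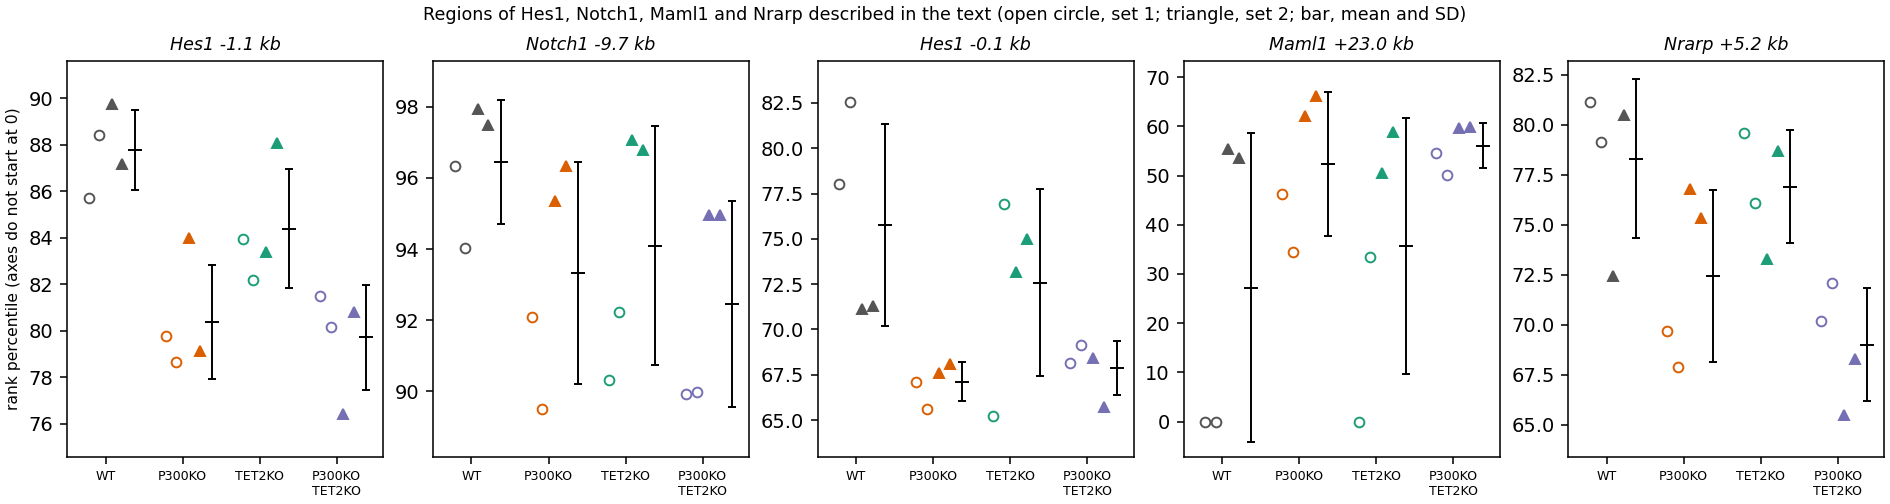
Rank percentile (y axis, a scale for each panel that does not start at 0) in the 4 libraries of each genotype (x axis) at 5 regions of Hes1, Notch1, Maml1 and Nrarp chosen from those described in the text and named by the distance of the summit from the start site. Open circles are set 1, triangles set 2, bars the mean and SD. At the upstream Hes1 region, WT lies at 85.7 to 89.8 and P300KO at 78.6 to 84.0, and at Maml1 the libraries at 0 are p300-intact ones of set 1.

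Over the 104 tested regions, the percentiles of 2 genotypes did not overlap for 2 regions in P300KO_TET2KO against TET2KO (1.77% of all regions), 4 in P300KO against WT (1.4%), 1 in TET2KO against WT (0.93%) and 1 in P300KO_TET2KO against P300KO (1.86%). The 4 in P300KO against WT were 3 regions of Hes1, all lower in P300KO, and 1 of Maml1, which was higher. Only the upstream Hes1 region was separated in the same direction in both p300 comparisons, as were 0.108% of all regions. The count of separated regions was added after the values were seen.

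Nrarp (ENSMUSG00000078202.3, chr2:25180758-25183339, plus strand), a target gene whose product feeds back on the Notch complex, was the most even locus. It had 5 regions in every library except 4 in replicate 1 and 6 in replicate 3 of WT. The start-site region (chr2:25180174-25182002) stood at percentiles 89.6 to 94.7 with a difference of 0.07 ± 0.97 (SE) points with p300 loss. Every TET2KO library, at 92.4 to 94.7, ranked above every WT library, at 90.8 to 92.1, a difference of 1.75 ± 1.37 (SE) points (adjusted p = 0.776, limma). Downstream of the gene, a region (chr2:25185627-25186758, 5183 bp from the start) stood at 81.1, 79.2, 72.5 and 80.5 in WT and 69.7, 67.9, 76.8 and 75.3 in P300KO. In TET2KO it stood at 79.6, 76.1, 73.3 and 78.7 and in P300KO_TET2KO at 70.2, 72.1, 65.5 and 68.3, so that the Tet2-null groups did not overlap. The difference was -7.90 ± 2.75 (SE) points in P300KO_TET2KO against TET2KO (adjusted p = 0.570, limma) and -6.88 ± 1.94 (SE) with p300 loss over both backgrounds (adjusted p = 0.199, limma). The 2 upstream Nrarp regions with RBPJ strings had mean percentiles of 46.7 and 44.0, and differences of 2.58 ± 3.54 and -1.22 ± 6.20 (SE) points with p300 loss (adjusted p = 0.812 and 0.964, limma).

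Dtx1 (ENSMUSG00000029603.15, chr5:120680202-120711927, minus strand) encodes Deltex1, a ubiquitin ligase that modulates Notch signaling. It had 27 regions, 2 of them in all 16 libraries, and 8 of the 12 tested lay near transcript starts. Its start-site region (chr5:120710277-120712103) was absent from replicate 1 of WT and stood at 59.8 to 74.9 in the other libraries. The intronic region with the RBPJ string shown above (chr5:120688423-120689010) had peaks in all 8 libraries of set 2 and in 1 of set 1. In set 2 its percentiles were 45.2 and 49.4 in WT against 34.8 and 26.2 in P300KO, and 39.8 and 37.6 in TET2KO against 17.6 and 21.4 in P300KO_TET2KO, so that all 4 p300-null libraries ranked below the p300-intact ones. The difference with p300 loss was -11.4 ± 3.72 (SE) points over both sets (adjusted p = 0.250, limma). Within set 2, with 2 libraries a genotype, it was -18.0 ± 2.51 (SE) points (adjusted p = 0.0496, limma). The fit within set 2 called 1918 of 128335 regions, and the fit over both sets called 213. In set 1 the Dtx1 region was detected in 1 TET2KO library, and it was named after its values were seen.

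Ptcra (ENSMUSG00000036858.8, chr17:46755663-46763712, minus strand) encodes the invariant chain of the pre-T cell receptor and is used in developing T cells. It had 6 regions, and the 2 that were present in all 16 libraries lay at the starts of the neighboring genes Cnpy3 and 2310039H08Rik. The region at its own start (chr17:46763513-46763865), which contains part of the promoter printed above, was called in 4 libraries. These were replicates 1 and 2 of WT, at percentiles 47.0 and 31.1, and replicates 1 and 4 of P300KO, at 7.81 and 6.19. It was called in 4 of 8 Tet2-intact and 0 of 8 Tet2-null libraries, so that it met the minimum of 4 libraries only through the Tet2-intact group, where it is high, and these counts are a description. The mean percentile of the 6 markers of mature T cells was 22.7 to 40.3 in WT libraries and 21.8 to 35.2 in P300KO, 23.0 to 39.1 in TET2KO and 21.8 to 33.1 in P300KO_TET2KO libraries, and its part in the Ptcra values was not tested.

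**Figure D4:**
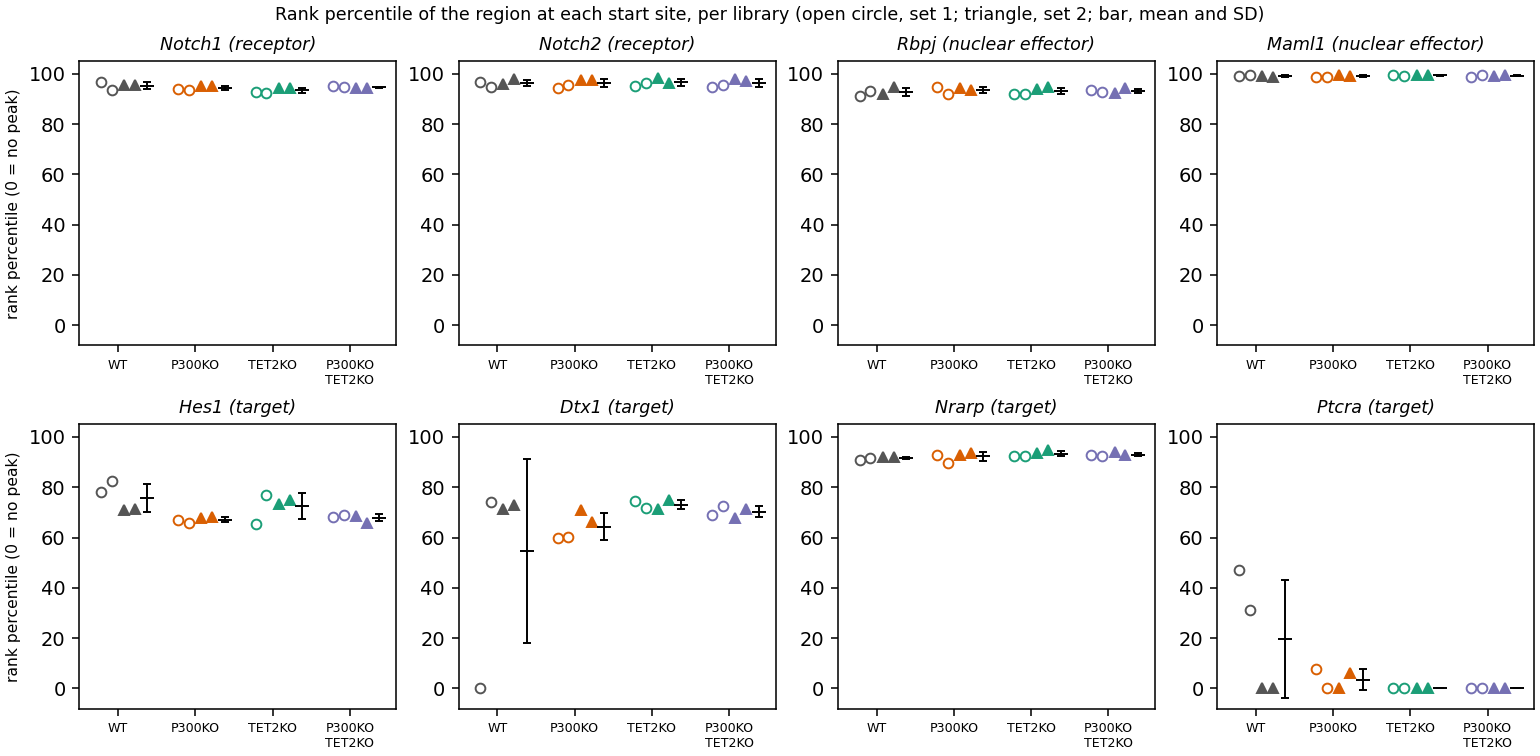
Rank percentile (y axis, 0 where no peak was called) of the region at the principal start site of each gene in the 4 libraries of each genotype (x axis). Open circles are set 1, triangles set 2, bars the mean and SD. Notch1, Notch2, Rbpj, Maml1 and Nrarp stay above 89 in all 16 libraries, Hes1 lies at 65.2 to 82.6, and Ptcra is above 0 in 4 libraries.

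Compared by role, the start sites of receptors and effectors stood above 91 in each library's list of all peaks, and those of the target genes spread widely. The start-site percentile averaged over 16 libraries was 99.2 for Maml1, 96.3 for Notch2, 94.4 for Notch1, 93.2 for Rbpj, 92.5 for Nrarp, 70.8 for Hes1, 65.6 for Dtx1 and 5.76 for Ptcra. The ranges of Notch1, Notch2, Rbpj and Nrarp over libraries overlapped, as did those of Hes1 and Dtx1. Of the start regions of coding genes, 95.3% ranked at or below that of Maml1, 75.5% at or below that of Notch2, 65.5% at or below that of Notch1 and 59.8% at or below that of Rbpj. Among the target genes the share was 57.3% for Nrarp, close to that of Rbpj, 29.8% for Hes1, 27.5% for Dtx1 and 10.3% for Ptcra. The density of regions had another order. Target loci had 1.87 ± 0.209 regions per 10 kb, receptor loci 1.53 ± 0.259 and effector loci 1.148 ± 0.326 (SD over 16 libraries of the mean of the genes), where the median of all coding loci was 0.801. The receptor mean minus the target mean was -0.335 ± 0.136 per 10 kb (SD over 16 libraries). It was negative in all 16, which measure the same loci. By gene the density was 2.38 for Hes1, 2.21 for Nrarp, 1.98 for Dtx1, 1.63 for Notch1, 1.61 for Maml1, 1.43 for Notch2, 0.891 for Ptcra and 0.687 for Rbpj. With their flanks these loci were 23.4, 22.6, 51.7, 78.8, 56.7, 156.8, 28.05 and 211.2 kb long, in the same order. The windows of Dtx1, Nrarp, Ptcra and Notch2 also hold regions near starts of other coding genes. The part of length and of these starts in the densities was not tested.

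Regions of target genes lay near start sites more often. Of the 46 regions of target genes 54.4% were within 3 kb of an annotated transcript start, against 24.4% of 78 regions of receptors and 17.3% of 52 regions of effectors, and 26.1%, 17.9% and 15.4% were present in all 16 libraries. Among all regions of the series 13.3% were in all 16 libraries. Of the tested regions, 65.4% at target genes, 27.7% at receptors and 22.6% at effectors lay near a start, against 34.3% of all tested regions. The summit windows of tested target regions had a median GC content of 60.4%, those of receptors 53.2% and those of effectors 45.8%, where the median of all was 50.7%. By genotype, receptor loci had 1.46 ± 0.383 (WT), 1.58 ± 0.285 (P300KO), 1.5 ± 0.254 (TET2KO) and 1.57 ± 0.173 (P300KO_TET2KO) regions per 10 kb, and target loci, in the same order, 1.92 ± 0.288, 1.9 ± 0.195, 1.85 ± 0.219 and 1.79 ± 0.191 (SD, n = 4 each). These SDs include the difference between the sets.

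With p300 loss, the median difference of tested regions was 1.43 percentile points at receptors, 2.42 at effectors and -1.25 at target genes, beside 0.56 over all regions of the series. In P300KO against WT the medians were 1.1, -0.20 and -2.82, and in P300KO_TET2KO against TET2KO, which has no library in common with it, 2.72, 0.40 and -1.41. By gene the median with p300 loss was 0.04 at Notch1 and 2.27 at Notch2, and -0.02 at Rbpj and 3.90 at Maml1. Among the target genes it was -4.20 at Hes1, -1.75 at Dtx1, 0.07 at Nrarp and -1.125 at Ptcra. The median of a role thus does not hold for each of its genes. These medians describe the chosen genes and carry no test.

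**Figure D5:**
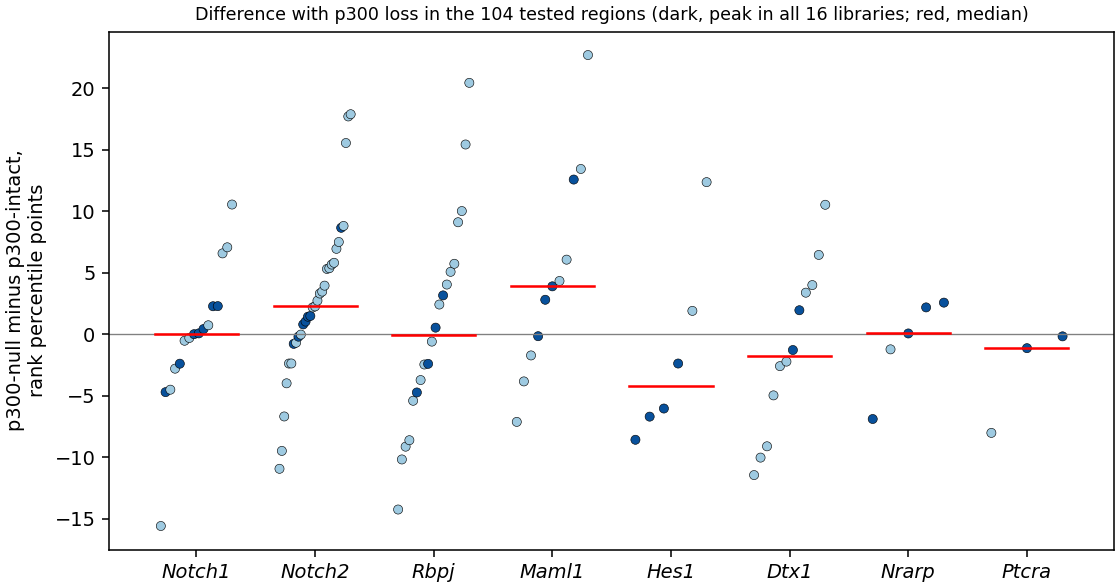
Difference of the mean rank percentile between the 8 p300-null and the 8 p300-intact libraries (y axis, percentile points) for the 104 tested regions, by gene (x axis). Dark points are regions present in all 16 libraries and red lines the medians of a gene. The 4 dark points of Hes1 all lie below 0, between -8.57 and -2.37.

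Of 46 other genes of the pathway (ligands, further receptors, secretase subunits, glycosyltransferases, coregulators and further targets), 39 had a start-site region in all 16 libraries. Of 484 tested regions in their loci, 1 was called with p300 loss and 0 in each of the other 5 comparisons, while 71, or 14.7%, had an unadjusted p under 0.05 with p300 loss (limma). Of all regions, 0.166% were called and 12.6% had such a p with p300 loss, so both shares were near the background. The region called lay in an exon of Adam10, which encodes a protease that cuts Notch receptors at the cell surface (chr9:70740027-70740285). Its mean percentile was 0.920 in p300-intact and 20.03 in p300-null libraries, a difference of 19.1 ± 3.25 (SE) points (adjusted p = 0.0443, limma), with a peak in 2 of 8 p300-intact and 7 of 8 p300-null libraries. It met the minimum of 4 libraries only through the p300-null group, where it is high, and it lay low in the lists of both. None of the 46 loci passed the test of region counts.

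The start-site region of each member but Ptcra was also set beside those of 15061 genes, for the gene on another chromosome whose percentiles ranked the libraries most alike after the mean of each set was subtracted. These genes were Snap91 for Notch1 (Spearman's rho 0.938), Abraxas2 for Notch2 (0.776), Rasd1 for Rbpj (0.844) and Hyal1 for Maml1 (0.844). For the target genes they were Nrg3 for Hes1 (0.929), Adamtsl3 for Dtx1 (0.962) and Epm2a for Nrarp (0.856). Each rho is the highest of 15061 over the same 16 libraries and is given as a description.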

How the data were processed

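ATAC-Seq peak lists of 16 libraries were analysed. Per the submitters' processing notes and the study's methods, the authors trimmed reads with cutadapt 1.9.1, aligned them to mm10 with Bowtie2 2.2.6, removed duplicates, shifted reads for Tn5 and called peaks per library with MACS2 2.1.0. The deposited lists give each summit's fold enrichment, a ratio to local background, and the authors' -log10 p-value and -log10 q-value. Fold was not tested, and the number of reads is unknown.

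Summits of 1 interval were counted as 1 peak, and peaks were merged at 1 bp of overlap. Rank percentiles (regions with a peak in at least 4 libraries) and log2(regions + 1) of each protein-coding locus were fitted with limma 3.58.1 (R 4.3.3), with genotype and deposit set as terms and Benjamini-Hochberg adjustment over all features of a comparison. Single values had two-sided exact permutation tests, over 70 regroupings of 4 against 4 (smallest p 0.0286) or 1296 arrangements of p300 labels within set and Tet2 background (smallest p 0.00154). The 70 regroupings do not keep the set, so the difference between sets is part of their spread. The spread behind each p is that between pools of mice.

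Tested on simulated data for p300 loss over 128335 regions, the fit called 27 of 200 planted shifts of 10 percentile points and 71 of 200 of 20 points. Positions are from GENCODE M21, and sequences from the mm10 reference and RefSeq promoters, which matched 7 of 8 members. Named regions were the start-site regions, those gained or lost, and the 2 with the lowest p of each comparison, and for each gene the promoter most alike, which for Ptcra is not reported here. Other regions were named after their values were seen. Members, lists and tests were chosen with earlier results of these data known. Deviations from genotype means correlated at 0.121 to 0.380 between same-numbered libraries and at 0.156 to 0.415 between other numbers of the same set, so the numbers share only the set. Alternatives changed the scale, filter, overlap, flank, peaks kept, terms of the fit and libraries left out.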

Additional observations from a re-analysis of the deposited data

Results flagged for a closer look

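Within each genotype, the 4 libraries were tested for a value far from the others in 64 groups, of region counts and of start-site percentiles of the 8 genes, and 5 stood out. For normally distributed values chance flags about 1 in 20 groups, a rate that does not hold for small counts with ties. The Dtx1 start-site region was at percentile 0 in replicate 1 of WT and at 71.4 to 74.2 in the other WT libraries, and that library had the fewest regions of all 16 at Dtx1, 5. The other 4 differ from their groups by 1 or 2 regions. In each of them the remaining libraries had equal counts, so that any different count was flagged. The Hes1 locus had 5 regions in replicate 2 of WT and 6 in the other WT libraries, and 4 in replicate 1 of P300KO_TET2KO and 6 in the others. The Ptcra locus had 2 regions in replicate 4 of WT and 3 in the others, and 3 in replicate 1 of TET2KO and 2 in the others. No difference of the p300 effect between Tet2 backgrounds passed the limma test at a member region (0 of 104, 2 at an unadjusted p under 0.05).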

How the results depend on the processing

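No member locus passed the test of region counts under any of 25 alternatives, including a replicate block. Of the member regions, the number called by rank with p300 loss was 0 in the report, with 213 of all regions, and 2 on the log2 of the rank (1505 of all), 2 among shared regions (1160), 1 among regions in all 16 libraries (327), 2 among the strongest 50000 peaks (985), 1 in set 1 (1335) and 2 in set 2 (1918). The count over all regions was thus higher in each setting that called a member. The report, the log2 of the rank and each set alone tested 128335 regions. Shared regions and regions in all 16 libraries numbered 39310, and the strongest 50000 peaks gave 55949 tested regions. The share of all regions called was therefore higher in these settings too. The number of members called stayed 0 with a replicate block (67 of all), with no deposit set (10) and without each replicate (81 without TET2KO replicate 4 to 481 without P300KO replicate 2). Set 1 alone gave 1 region in P300KO_TET2KO against TET2KO, 1 in P300KO_TET2KO against P300KO and 1 in the difference of the p300 effect between backgrounds, all the weak Notch2 intronic region, with 1010, 1181 and 982 of all regions against 26, 58 and 0 in the report. Set 2 alone gave 1 in P300KO against WT, another Notch2 intronic region (37.6 points, against -24.0 in set 1), with 2 libraries a genotype and 382 of all regions against 24 in the report. With both WT libraries of set 1 left out, a choice made after seeing the data, P300KO against WT gave 1 member region, a weak one 71227 bp past the Rbpj start with no peak in set 1 (adjusted p = 0.0404, limma), and 497 of all regions, and p300 loss gave 0 of the members and 909 of all. Where a peak in 3 libraries of one genotype and 1 of the other sufficed, 1 member region was gained and 1 lost in P300KO_TET2KO against TET2KO (3517 and 1547 of all), 2 were gained in P300KO against WT (2212 gained and 1745 lost of all), and 1 was gained and 1 lost in P300KO_TET2KO against P300KO (3295 and 1718). Without TET2KO replicate 1, 1 Rbpj region was lost in P300KO_TET2KO against TET2KO. In P300KO_TET2KO against P300KO, 1 Notch2 region was gained without P300KO_TET2KO replicate 3 and another lost without P300KO replicate 3. Leaving out single libraries thus gave 0 to 1, and the cause was not tested.

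The direction turned for several differences. Among them were the downstream Hes1 region in P300KO against WT with 50% of the region covered (6.07 points, adjusted p = 0.939, limma) and 5 small differences with p300 loss. With a -log10 q of at least 2 the turned values were 0.42 at the Notch2 start, 0.11 at the Hes1 gene body and 2.39 at the proximal upstream Nrarp region. In set 2 alone they were -0.23 at the Notch1 start, 0.39 at the Notch2 start (0.083 without the WT libraries of set 1) and 1.78 at that Nrarp region. Without single libraries the range was -0.18 to 0.39 at the Notch1 start, -0.44 to 0.063 at the Notch2 start, -0.15 to 0.42 at the Nrarp start and -5.20 to 3.39 at that Nrarp region, so these have no stable direction. Others with p300 loss turned too. The Dtx1 start went from 3.39 to -5.47 among the strongest 50000 peaks, -3.61 in set 2, -5.59 without WT replicate 1, -4.78 without both WT libraries of set 1 and -0.006 on the log2 of the rank. The Ptcra start went from -8.01 to 1.55 in set 2 and 1.68 without those WT libraries, the downstream Hes1 region from -8.57 to 1.26 with 50% covered, an intronic Notch2 region from 5.37 to -10.2 in set 1, the region in Gm26542 from 6.07 to -1.52 in set 2, the Maml1 start from -0.15 to 0.10 and the Rbpj start from 0.54 to -0.08 in set 2. The replicate block changed no call of a member. Peak lists without read counts limit precision, and an absent peak does not show closed chromatin.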
